A study of Mus musculus with 6 samples.

Results

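The 10 genes described here encode fibronectin (Fn1), tenascin C (Tnc), the thrombospondins 1 to 4 (Thbs1, Thbs2, Thbs3, Thbs4), SPARC (Sparc), its relative SPARC-like 1 (Sparcl1), periostin (Postn) and the transforming growth factor beta-induced protein (Tgfbi). They were taken by symbol from tables of gene counts that list 22007 symbols, and all 10 were found and tested. Corneal RNA of male C57BL/6J mice was sequenced in 2 groups of 3 libraries, each library a pool of corneas. OFBI mice were awake when exposed to a single open-field blast, set off 3 m away with 350 g of C-4, and their corneas were taken 12 months later. Naive mice carry the same 12-month label and the same tissue, sex and strain labels. The number of corneas or animals in a pool is not given in the sources used here.

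Matricellular proteins are secreted into the extracellular matrix but act mainly as signals and adaptors rather than as load-bearing fibres. They bind integrins, growth factors, proteases and collagens, are kept low in many adult tissues and are raised during wound repair. Fibronectin forms the provisional matrix over which corneal epithelium migrates after injury. The protein of Tgfbi, also called keratoepithelin, is abundant in normal cornea, and variants of the human gene cause corneal dystrophies in which it accumulates in the stroma.

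The groups differed in sequencing depth. The Naive libraries held 41971752 to 47809779 estimated counts and the OFBI libraries 1173472 to 3410476, and OFBI replicate 3 was the shallowest. A count of 0 is compatible with up to 3 fragments, taken as 12 deposited counts. This floor equals 0.237 to 0.264 CPM in a Naive library, 3.71 and 3.84 CPM in OFBI replicates 1 and 2, and 11.2 CPM in OFBI replicate 3. CPM are estimated counts per 1000000, scaled between libraries by the TMM method. Markers of corneal epithelium were abundant in every library, with Krt12, a keratin of this epithelium, at 25571 CPM in OFBI and 9999 CPM in Naive corneas on average. Of 8 such markers, Krt12, Krt5 and Krt14 were called higher in OFBI, Cdh1 was called lower, at 454.0 against 732.1 CPM, and 4 were not called. The summed level of 8 keratocyte markers was 73.9 to 164.2 CPM in OFBI and 257.4 to 275.8 CPM in Naive libraries. Dcn and Ptgds were called lower, and the other 6 were not called. Among these, Kera, a defining keratocyte gene, was at 0 in OFBI replicates 1 and 3. Its Naive mean of 10.8 CPM lies under the floor of OFBI replicate 3. Cd34 went the other way, at 10.7 CPM in OFBI and 3.64 CPM in Naive libraries on average. The summed level of 12 hepatocyte markers was 91.2, 127.1 and 975.5 CPM in the OFBI replicates (1, 2, 3) against 1.6 to 6.50 CPM in Naive libraries. In bulk RNA, fewer cells of a type and less RNA per cell cannot be told apart.

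After OFBI, Thbs3, Thbs4 and Sparc were called higher and Fn1 was called lower, while the other 6 genes did not pass the test. The test was edgeR's quasi-likelihood test over all 13941 genes that passed its expression filter, with a Benjamini-Hochberg adjusted p below 0.05. Of all genes tested, 8.41% were called higher, 10.4% lower and 18.8% in either direction. The 1 call lower among 10 genes is close to that background, and the 3 calls higher are a larger share than the background, with no test of a list this short. Groups were fully apart for 4 genes higher in OFBI (Tnc, Thbs3, Thbs4 and Sparc) and 4 genes lower in OFBI (Fn1, Thbs1, Thbs2 and Tgfbi). Over all genes tested, 16.4% lay wholly above, 29.9% wholly below and 46.4% were apart in either direction. The median log2 fold change was -0.37 over the 10 genes and -0.20 over all genes tested.

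**Figure D1:**
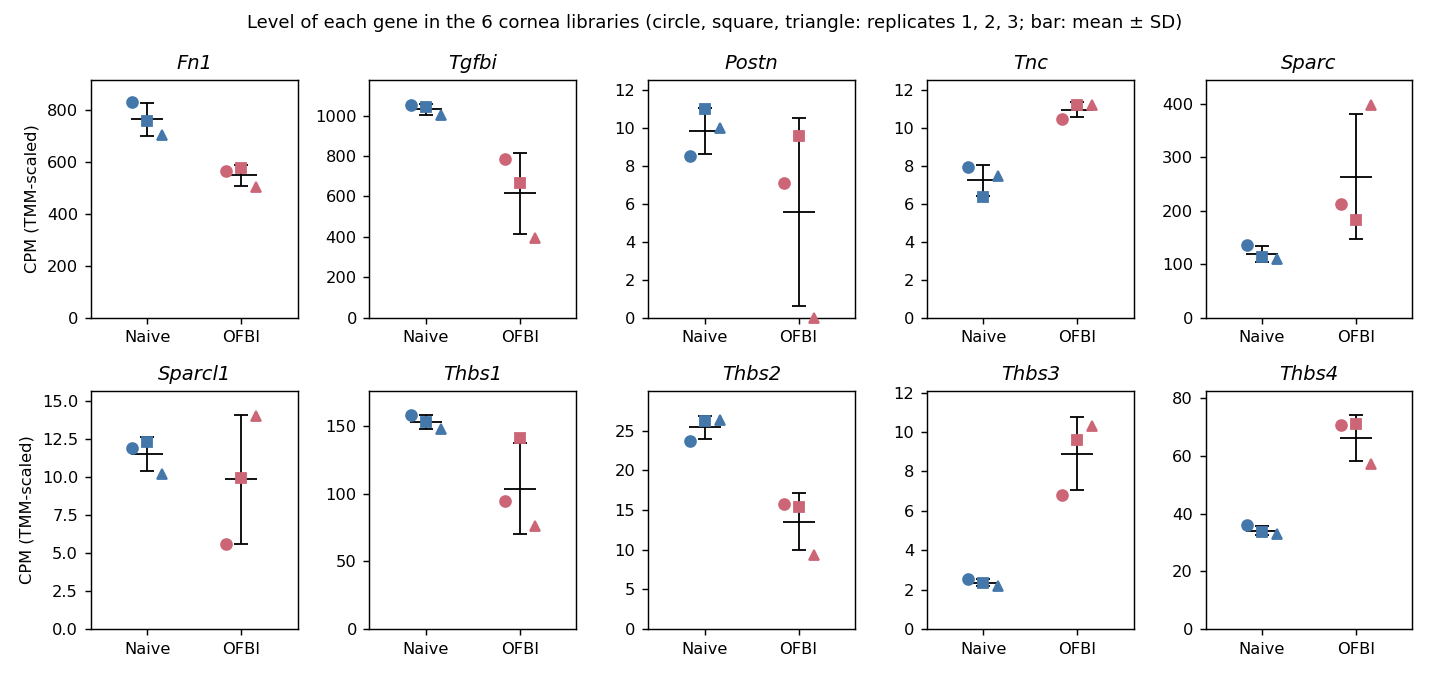
Level of each gene in CPM (TMM-scaled, linear axes from 0) in the 3 Naive and 3 OFBI libraries, with the mean ± SD of each group. OFBI points of Thbs3, Thbs4, Sparc and Tnc sit above all Naive points, those of Fn1, Tgfbi, Thbs1 and Thbs2 sit below, and Postn is at 0 in OFBI replicate 3.

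The promoters of the 3 genes called higher are shown because they are the members that moved in the same direction. The windows come from RefSeq on GRCm38.p6 and run from 250 bases before to 50 bases after the annotated start, 5′ to 3′. A window was found for 7 of the 10 genes. The Sparc window lies wholly inside the GENCODE span of the gene, 55394500 to 55423183 on the minus strand. It is therefore not the window of the outermost start annotated there. Capitals mark matches, on either strand, to 5 short motifs: the TATA box form TATAAA, the box named CCAAT, the GC box core GGGCGG, the AP-1 form TGANTCA, in which N is any base, and the SMAD-related CAGACA. Thbs3 (chr3:89214930-89215229, plus strand), Thbs4 (chr13:92794769-92795068, minus strand) and Sparc (chr11:55420031-55420330, minus strand) read as follows.
Thbs3: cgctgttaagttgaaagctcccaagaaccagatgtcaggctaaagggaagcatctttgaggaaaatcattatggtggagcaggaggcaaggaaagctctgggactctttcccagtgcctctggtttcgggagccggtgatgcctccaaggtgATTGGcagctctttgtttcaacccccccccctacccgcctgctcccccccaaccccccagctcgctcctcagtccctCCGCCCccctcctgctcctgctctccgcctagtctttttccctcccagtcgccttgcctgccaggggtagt
Thbs4: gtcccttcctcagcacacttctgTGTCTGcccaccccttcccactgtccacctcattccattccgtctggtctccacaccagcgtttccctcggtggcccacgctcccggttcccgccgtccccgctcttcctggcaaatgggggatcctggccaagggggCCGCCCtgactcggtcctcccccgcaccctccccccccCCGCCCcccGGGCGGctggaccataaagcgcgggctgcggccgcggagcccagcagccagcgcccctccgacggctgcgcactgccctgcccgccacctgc
Sparc: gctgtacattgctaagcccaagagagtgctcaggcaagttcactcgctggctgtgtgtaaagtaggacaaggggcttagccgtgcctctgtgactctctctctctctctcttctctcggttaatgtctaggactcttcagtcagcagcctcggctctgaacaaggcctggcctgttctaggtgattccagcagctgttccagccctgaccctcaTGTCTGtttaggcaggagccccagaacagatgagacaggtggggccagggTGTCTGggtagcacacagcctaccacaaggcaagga

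None of these 3 windows held TATAAA or TGANTCA. Thbs3 held 1 match to GGGCGG, the core of a GC box, and Thbs4 held 3. Sparc held none, and instead 2 matches to CAGACA, which contains the core recognised by SMAD proteins. Thbs4 also had 1 match to CAGACA, and Thbs3 had 1 match to CCAAT. Of 32851 mouse promoter windows of the same length, 13.6% held TATAAA, 37.4% CCAAT, 35.7% GGGCGG, 7.81% TGANTCA and 21% CAGACA. The Thbs4 window was 72.0% G and C with 24 CG dinucleotides, that of Thbs3 59.0% with 8, and that of Sparc 55.3% with 4. The median over all windows was 52.7% with 7. No motif was shared by all 3 windows, and a match is a description of letters and not a site.

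In Naive corneas the 10 genes covered a wide range of levels. Levels of different genes were compared per length, as TPM, the share of length-scaled counts per 1000000, computed from the estimated counts and the merged exon length of each gene. Tgfbi was highest at 1169 ± 29.1 TPM (SD, n = 3), above 99.6% of all symbols. Fn1 followed at 279.2 ± 23.5, Sparc at 134.5 ± 16.5, Thbs1 at 107.9 ± 3.61 and Thbs4 at 44.3 ± 2.05 TPM (SD, n = 3). The libraries of each lay apart from those of the next gene in this order. Sparcl1 at 16.7 ± 1.63 and Thbs2 at 15.5 ± 0.893 TPM (SD, n = 3) overlapped. So did Postn at 4.85 ± 0.609 and Tnc at 3.99 ± 0.452 TPM (SD, n = 3). Thbs3 was lowest at 2.08 ± 0.165 TPM (SD, n = 3), above 43.8% of symbols.

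The order was partly different after OFBI. Tgfbi stayed highest with 559.6 ± 204.3 TPM (SD, n = 3), before Sparc with 232.8 ± 88.8 TPM (SD, n = 3). Their ranges met only in OFBI replicate 3, where both genes were at 333.9 TPM. Sparc stood before Fn1, at 159.7 ± 19.8 TPM (SD, n = 3), with ranges that overlapped. Thbs4, at 68.7 ± 11.7 TPM, stood before Thbs1, at 58.5 ± 20.8 TPM (SD, n = 3), again with overlapping ranges. Thbs3 stood at rank 8 instead of rank 10, at 6.23 ± 1.09 TPM (SD, n = 3), and overlapped both Thbs2 and Tnc.

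Fn1 and Tgfbi are the abundant integrin-binding adhesion genes of the group, and both were lower in the OFBI libraries. Fn1 (chromosome 1, 71585520 to 71653200, minus strand, GRCm38) encodes the fibronectin that integrin-bound cells assemble into fibrils. Its levels were 565.4, 576.6 and 502.2 CPM in the OFBI replicates (1, 2, 3) against 831.0, 755.4 and 702.7 CPM in Naive replicates 1, 2 and 3. Every OFBI library lay below every Naive library, and the means were 548.1 ± 40.1 and 763.0 ± 64.5 CPM (SD, n = 3). The log2 fold change was -0.48 ± 0.13 (SE; adjusted p = 0.0416, edgeR). The plasma form of fibronectin is made by hepatocytes, whose markers were higher in the OFBI libraries, and their part in the Fn1 values was not tested. The call was lost without OFBI replicate 1 (adjusted p = 0.0657 in edgeR) and after thinning the Naive libraries to the first OFBI library (-0.42, adjusted p = 0.0657 in edgeR). After removal of a GC and length trend the log2 fold change was -0.91 (adjusted p = 0.0250 in edgeR).

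Tgfbi (chromosome 13, 56609523 to 56639562, plus strand) had the highest counts of the 10 genes in every library except OFBI replicate 3. In that library Fn1 had 537 counts, and Sparc and Tgfbi were level at 425 and 423. Tgfbi measured 783.0, 664.6 and 395.6 CPM in OFBI replicates 1, 2 and 3, against 1050.5, 1040.7 and 1001.2 CPM in the Naive replicates. The 3 Naive libraries were close together, while the OFBI libraries spread widely, with replicate 3 far below the other two. The difference on the log2 scale of -0.74 ± 0.24 (SE) did not pass in edgeR (adjusted p = 0.0721). Without OFBI replicate 3 it was smaller, -0.52, and passed (adjusted p = 0.0164 in edgeR). DESeq2 and limma-voom called Tgfbi lower with all libraries (adjusted p = 0.0195 and 0.0425). The summed keratocyte markers were also lowest in OFBI replicate 3, at 73.9 CPM against 120.3 and 164.2 CPM in replicates 1 and 2. In that library only Dcn and Cd34 lay above its floor of 11.2 CPM, and Cd34 was highest there. The part of these markers in the Tgfbi values was not tested.

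Tgfbi and Fn1 were also compared with each other. Inside a library, the ratio of Tgfbi to Fn1 counts does not depend on scaling between libraries. It was 1.38, 1.15 and 0.788 in the OFBI replicates (1, 2, 3) against 1.26, 1.38 and 1.42 in the Naive replicates, so the groups overlapped. Of the counts of all 10 genes, Tgfbi held 44.2%, 39.3% and 26.9% in the OFBI replicates and 46.3% to 48.8% in Naive libraries, while Fn1 held 31.9% to 34.1% and 34.3% to 36.7%.

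Thrombospondins fall into a subgroup that assembles as trimers, Thbs1 and Thbs2, and a subgroup that assembles as pentamers, to which Thbs3, Thbs4 and the cartilage oligomeric matrix protein gene Comp belong. Thbs1 and Thbs2 restrain blood vessel growth, and the protein of Thbs1 also activates latent transforming growth factor beta. Thbs4 is a matrix gene of tendon, muscle and heart. The pentamer genes Thbs3 and Thbs4 were called higher after OFBI, and neither trimer gene passed the edgeR test.

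Thbs4 (chromosome 13, 92751590 to 92794818, minus strand) had the smallest adjusted p of the 10 genes. It measured 70.8, 71.1 and 57.1 CPM in OFBI replicates 1, 2 and 3, and 35.9, 33.7 and 32.8 CPM in the Naive replicates. The lowest OFBI library was above the highest Naive library. The means were 66.3 ± 8.01 and 34.1 ± 1.58 CPM (SD, n = 3), a difference on the log2 scale of 0.97 ± 0.18 (SE; adjusted p = 0.0191, edgeR). The estimate was 1.05 without OFBI replicate 3 and 0.77 when only library size was scaled, the lowest over 31 alternatives. Summed cardiomyocyte markers were 204.3, 53.1 and 247.8 CPM in the OFBI replicates (1, 2, 3) against 27.1 to 33.0 CPM in Naive libraries. Their part in the Thbs4 values was not tested. The 5 tendon and sclera markers summed to 36.5 to 81.6 CPM in OFBI and 57.4 to 66.6 CPM in Naive libraries. Of the 4 tested, Scx rose on 14 to 24 counts per OFBI library and the other 3 did not pass. Tnmd, not tested, was at 0 in OFBI libraries, but its Naive mean of 0.492 CPM lies under the OFBI group floor of 1.62 CPM.

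Thbs3 (chromosome 3, 89215180 to 89226837, plus strand) had the largest fold change of the 10 genes but rested on few counts. Only 22, 30 and 11 estimated counts were found in the OFBI replicates (1, 2, 3) against 129, 107 and 99 in the Naive replicates. These correspond to 6.80, 9.60 and 10.3 CPM in OFBI and 2.55, 2.31 and 2.18 CPM in Naive libraries. All OFBI libraries were above all Naive libraries, although OFBI replicate 3 lay under its own floor of 11.2 CPM. The log2 fold change was 1.91 ± 0.49 (SE; adjusted p = 0.0382, edgeR). Summed over OFBI libraries, about 16 fragments give an exact 95% Poisson interval of 4.93 to 14.0 CPM, which covers counting error only and lies above the Naive interval of 1.88 to 2.92 CPM. After removal of a GC and length trend the log2 fold change was 1.72 (adjusted p = 0.0563 in edgeR). With all libraries thinned to the shallowest, Thbs3 did not pass the expression filter and was not tested.

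The exons of Thbs3 overlap those of Mtx1, a gene on the opposite strand that encodes the mitochondrial import protein metaxin 1. They share 318 bases between positions 89224109 and 89224670, which is 6.59% of the exon bases of Thbs3. The library kit keeps strand, but the strand setting of the counting is not given in the sources used here, so reads of this stretch may be assigned to either gene. Mtx1 had 25.3, 15.7 and 12.2 CPM in the OFBI replicates (1, 2, 3) against 13.9 to 14.5 CPM in Naive libraries (log2 fold change 0.34, adjusted p = 0.554 in edgeR). The part of Mtx1 reads in the Thbs3 values was not tested. Exons of Fn1, Tnc and Thbs1 overlap noncoding genes on the opposite strand that are not among the symbols listed. How reads of those stretches were assigned is not known.

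Thbs1 (chromosome 2, 118111876 to 118127133, plus strand) measured 94.6, 141.2 and 75.8 CPM in the OFBI replicates (1, 2, 3) against 158.5, 152.8 and 148.2 CPM in the Naive replicates. OFBI replicate 2 came close to the Naive libraries and the other two did not. The difference on the log2 scale of -0.55 ± 0.23 (SE) did not pass (adjusted p = 0.149 in edgeR), and without OFBI replicate 2 it was -0.88 and passed (adjusted p = 0.0232 in edgeR). Thbs2 (chromosome 17, 14665500 to 14694235, minus strand) measured 15.8, 15.4 and 9.35 CPM in OFBI and 23.7, 26.2 and 26.3 CPM in Naive replicates 1, 2 and 3. Its difference on the log2 scale of -0.88 ± 0.30 (SE) did not pass in edgeR (adjusted p = 0.0830), but passed without OFBI replicate 3 (-0.72, adjusted p = 0.0379 in edgeR). DESeq2 called Thbs2 lower with all libraries (adjusted p = 0.00872), and limma-voom did not (adjusted p = 0.146). Thbs1 is also a platelet gene in blood. The 7 platelet markers summed to 38.6, 25 and 65.5 CPM in OFBI and 25.5 to 53.2 CPM in Naive libraries. Pf4 and Ppbp were at 0 in every OFBI library but at only 0.247 and 0.173 CPM in Naive libraries, under the OFBI group floor of 1.62 CPM, and Gp9, Gp1ba and Treml1 were at 0 in all 6 libraries. The part of platelets in the Thbs1 values was not tested.

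The balance of Thbs3 and Thbs4 against Thbs1 and Thbs2 was shifted in every OFBI library. The ratio of summed Thbs3 and Thbs4 counts to summed Thbs1 and Thbs2 counts was 0.703, 0.515 and 0.791 in OFBI replicates 1, 2 and 3. In the Naive replicates it was 0.211, 0.201 and 0.200. The means were 0.670 ± 0.141 and 0.204 ± 0.00584 (SD, n = 3), and Thbs4 and Thbs1 supplied nearly all of these counts. Every OFBI library lay above every Naive library for Thbs3 and Thbs4 and below for Thbs1 and Thbs2. This ratio was therefore bound to separate the groups. It leaves out Comp, was chosen after the values were seen and is given without a test.

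**Figure D2:**
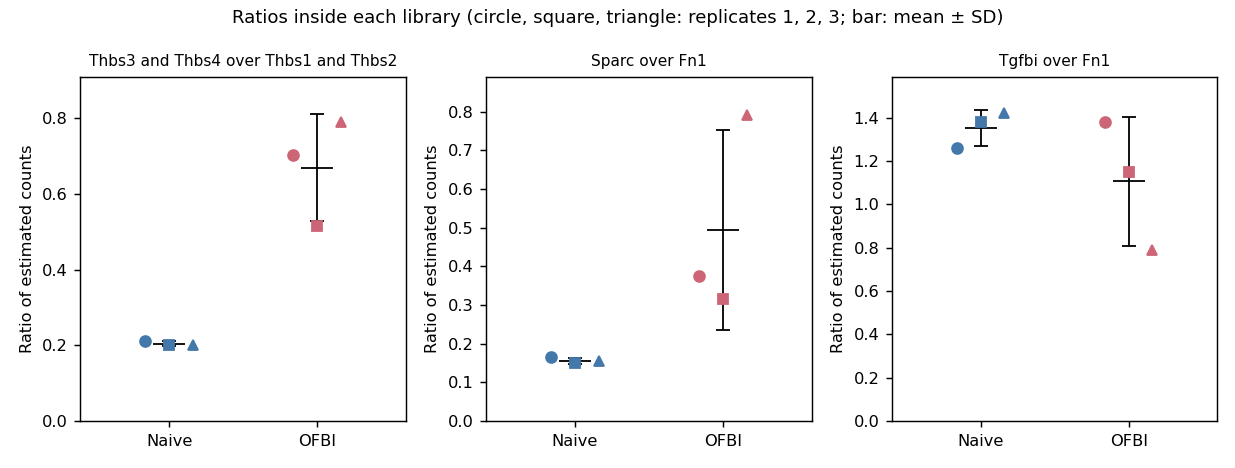
Ratios of estimated counts inside each library (linear axes from 0) for the 3 Naive and 3 OFBI libraries, with the mean ± SD of each group. The thrombospondin ratio is 0.515 to 0.791 in OFBI and 0.200 to 0.211 in Naive libraries, Sparc over Fn1 is highest in OFBI replicate 3 at 0.791, and the groups overlap for Tgfbi over Fn1. The thrombospondin ratio and Sparc over Fn1 were bound to separate the groups, because their genes did so singly.

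Sparc (chromosome 11, 55394500 to 55423183, minus strand) encodes a calcium- and collagen-binding glycoprotein needed for normal collagen fibril assembly. Its levels were 212.1, 182.2 and 397.5 CPM in the OFBI replicates (1, 2, 3) against 135.9, 112.9 and 108.8 CPM in the Naive replicates. All OFBI libraries were above all Naive libraries, and OFBI replicate 3 stood apart from the other two. The means were 263.9 ± 116.7 and 119.2 ± 14.6 CPM (SD, n = 3), a difference on the log2 scale of 1.14 ± 0.30 (SE; adjusted p = 0.0415, edgeR). Without OFBI replicate 3 the log2 fold change was 0.72 and still passed (adjusted p = 0.0186 in edgeR). Without OFBI replicate 1 it was 1.23 and did not pass (adjusted p = 0.0595 in edgeR), and the same held for removal of a GC and length trend (1.14, adjusted p = 0.0552 in edgeR). The 19 collagen, proteoglycan and other matrix partner genes summed to 8626, 7308 and 9965 CPM in OFBI replicates 1, 2 and 3, so OFBI replicate 3 was highest there too. Its hepatocyte markers were highest as well, and their part in the Sparc level was not tested.

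Sparc was also set against Col1a1, the main fibrillar collagen gene. The ratio of Sparc to Col1a1 counts was 0.0630, 0.0691 and 0.0947 in the OFBI replicates (1, 2, 3) against 0.241, 0.155 and 0.123 in the Naive replicates. All OFBI ratios were below all Naive ratios, and the ratio was also chosen after the values were seen. Against Fn1, in contrast, Sparc counts stood at 0.375, 0.316 and 0.791 in OFBI and 0.164, 0.149 and 0.155 in Naive replicates 1, 2 and 3. Every OFBI library lay above every Naive library for Sparc and below for Fn1, so this ratio was bound to separate the groups.

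Sparcl1 (chromosome 5, 104079111 to 104113733, minus strand), also called hevin, is the closest relative of Sparc and is expressed in blood vessels and brain. It measured 5.56, 9.92 and 14.0 CPM in the OFBI replicates (1, 2, 3) against 11.9, 12.3 and 10.2 CPM in the Naive replicates. The groups overlapped, and the OFBI libraries lay on both sides of the Naive libraries. Its difference on the log2 scale of -0.27 ± 0.45 (SE) did not pass (adjusted p = 0.731 in edgeR) and was 0.05 after adjusting for GC and length (adjusted p = 0.962 in edgeR). About 16 fragments over all OFBI libraries leave an exact Poisson interval of 4.93 to 14.0 CPM, which contains the Naive mean of 11.5 CPM.

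Tnc and Postn, the classical wound-associated members, were both low in these corneas. Tnc (chromosome 4, 63959785 to 64047015, minus strand) encodes a hexameric glycoprotein that modulates adhesion to fibronectin. It measured 10.5, 11.2 and 11.2 CPM in OFBI and 7.92, 6.34 and 7.49 CPM in Naive replicates 1, 2 and 3. The OFBI libraries lay above the Naive libraries but carried only 34, 35 and 12 estimated counts. The log2 fold change was 0.60 ± 0.39 (SE; adjusted p = 0.339, edgeR). The OFBI sum of about 20 fragments allows 6.58 to 16.6 CPM and the Naive sum 6.42 to 8.22 CPM (exact 95% Poisson intervals). These intervals overlap, and whether a difference of this size could be detected at this depth was not tested.

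Postn (chromosome 3, 54361109 to 54391037, plus strand) encodes a protein that links fibronectin, tenascin C and collagen in healing tissue. Its levels were 7.11, 9.60 and 0 CPM in the OFBI replicates (1, 2, 3) against 8.55, 11 and 10 CPM in the Naive replicates. The 0 in OFBI replicate 3 allows up to 11.2 CPM, a limit above every Naive library. The log2 fold change was -0.70 ± 0.81 (SE; adjusted p = 0.596, edgeR), and -0.25 without OFBI replicate 3 (adjusted p = 0.552 in edgeR). About 13 fragments over all OFBI libraries leave an exact 95% Poisson interval of 3.73 to 12 CPM, which contains the Naive mean of 9.87 CPM. Whether a difference of this size could be detected at this depth was not tested.

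**Figure D3:**
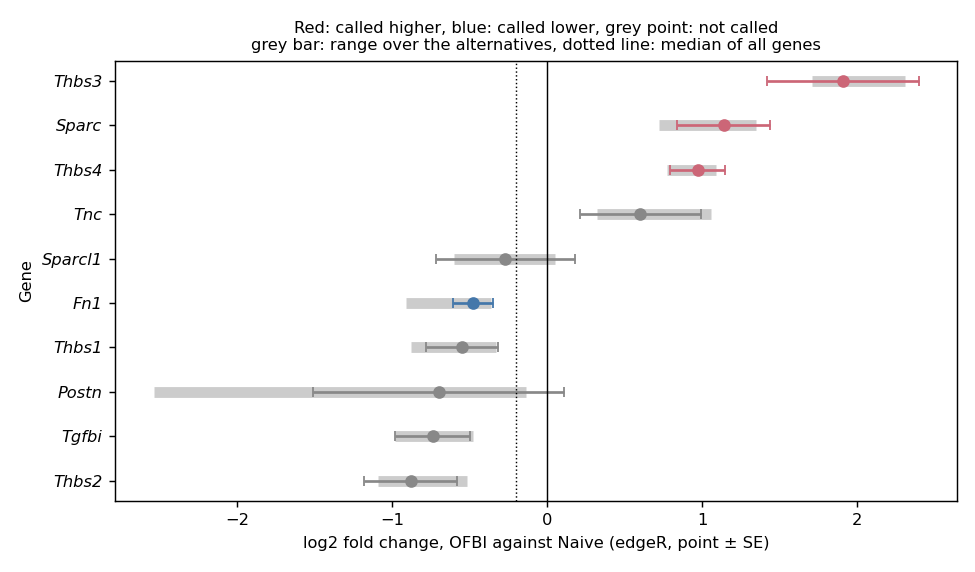
The difference on the log2 scale of OFBI against Naive for each gene (point ± SE, edgeR), with a grey bar for the range over the alternative analyses and a dotted line at the median of all genes tested. Thbs3, Sparc and Thbs4 (red) stay above 0 and Fn1 (blue) below 0 over their whole ranges, while Sparcl1 crosses 0.

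No edgeR call of these genes survived the loss of a Naive library. Without Naive replicate 1, 2 or 3 edgeR called none of the 10 genes, and over all genes it called 97 higher and 9 lower without the first, none without the second, and 96 higher and 8 lower without the last. At an unadjusted p below 0.05 there were 4, 5 and 5 of the 10 genes, and 2611, 2441 and 2615 of the 12099, 12094 and 12113 genes tested. In the same 3 removals DESeq2 called 3 of the 10 higher and 1 lower each time, against 8.35% to 10.3% and 3.96% to 4.99% of all genes. The limma-voom calls were 3, 2 and 2 higher and 1, 1 and 2 lower, against 8.57% to 10.9% and 4.37% to 6.41% of all genes. With all 6 libraries DESeq2 called 3 higher and 3 lower, against 13.3% and 13.1% of all genes. With limma-voom 3 were higher and 1 lower, against 7.31% and 8.95% of all genes. The genes called higher by both tools were Thbs3, Thbs4 and Sparc. DESeq2 called Fn1, Thbs2 and Tgfbi lower, and limma-voom called only Tgfbi lower, with Fn1 at an adjusted p of 0.0505. With library size in place of TMM, edgeR's median over all genes moved to -0.40 and 29.8% instead of 44.8% of its calls were higher. Thbs3 and Thbs4 were then called higher and Fn1, Thbs2 and Tgfbi lower, and Sparc was not called (adjusted p = 0.0632).

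Other matricellular genes were called at shares near those of all genes, 8.41% higher and 10.4% lower. Of 22 tested among 25, 3 rose, 2 were called lower and 17 did not pass, with a median difference on the log2 scale of 0.03. Tnxb, which encodes tenascin X, a tenascin of collagen-rich tissue, measured 75.1, 71.7 and 79.5 CPM in OFBI and 32.5, 33.2 and 30.3 CPM in Naive replicates 1, 2 and 3. Its log2 fold change was 1.23 ± 0.16 (SE; adjusted p = 0.00979, edgeR), with groups far apart. Matn4, a matrilin, went from 26.0 ± 4.72 to 51.0 ± 3.26 CPM (SD, n = 3), a difference on the log2 scale of 0.98 ± 0.22 (SE; adjusted p = 0.0286, edgeR). Spp1, which encodes osteopontin, was the other gene that rose, with a difference on the log2 scale of 1.61 ± 0.40 (SE; adjusted p = 0.0365, edgeR). Spock1, a SPARC-related proteoglycan gene, was at 0 in all OFBI libraries and 8.59 ± 0.393 CPM (SD, n = 3) in Naive libraries. Against the floor of 1.62 CPM over the OFBI group it was at least 5.32-fold lower. The other gene called lower, Matn3, had a Naive level under that floor, so its difference was not detectable. Comp, the other pentamer gene, had a difference on the log2 scale of 1.12 ± 0.52 (SE; adjusted p = 0.187, edgeR).

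Receptors of these proteins were tested in the same fit. Of 21 integrin, syndecan and scavenger receptor genes and other binding partners at the cell surface, 1 rose, none fell and 20 did not pass, where 8.41% of all genes were called higher and 10.4% lower. At an unadjusted p below 0.05 there were 6 higher and 1 lower, against 2011 and 2578 of all 13941 genes. DESeq2 called 6 higher and 1 lower, against 13.3% and 13.1% of all genes. The median log2 fold change was 0.39. The gene that rose was Sdc4, which encodes syndecan 4, a heparan sulfate co-receptor for fibronectin. It measured 1512, 1855 and 1428 CPM in OFBI and 874.0, 884.4 and 882.7 CPM in Naive replicates 1, 2 and 3, a difference on the log2 scale of 0.86 ± 0.13 (SE; adjusted p = 0.0132, edgeR). Itgb6, the beta chain of an epithelial integrin that binds fibronectin and tenascin C, had a difference on the log2 scale of 1.16 ± 0.33 (SE; adjusted p = 0.0516, edgeR). Cd47, a receptor of thrombospondin 1, had one of -0.52 ± 0.16 (SE; adjusted p = 0.0572, edgeR).

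Of all genes tested, 8.41% were called higher and 10.4% lower, with a median log2 fold change of -0.20. Among 19 collagen, proteoglycan and other matrix partners, 10 rose and 3 were called lower, with a median difference on the log2 scale of 0.87. The 3 with the smallest p were Col3a1, Col1a1 and Col1a2, with log2 fold changes of 3.02, 2.23 and 1.66 (edgeR adjusted p = 0.0053, 0.00666 and 0.00666). All were larger than those of Sparc and Thbs4, while that of Thbs3, 1.91, was larger than that of Col1a2. Lox, a collagen cross-linking oxidase, and Bmp1, a procollagen protease, rose with log2 fold changes of 2.60 ± 0.53 and 0.87 ± 0.21 (SE; edgeR adjusted p = 0.0231 and 0.0347). Col12a1, Dcn and Vcan were the genes called lower. Vcan, the proteoglycan versican, was at 0 in all OFBI libraries and at least 3.72-fold lower than in Naive libraries.

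**Figure D4:**
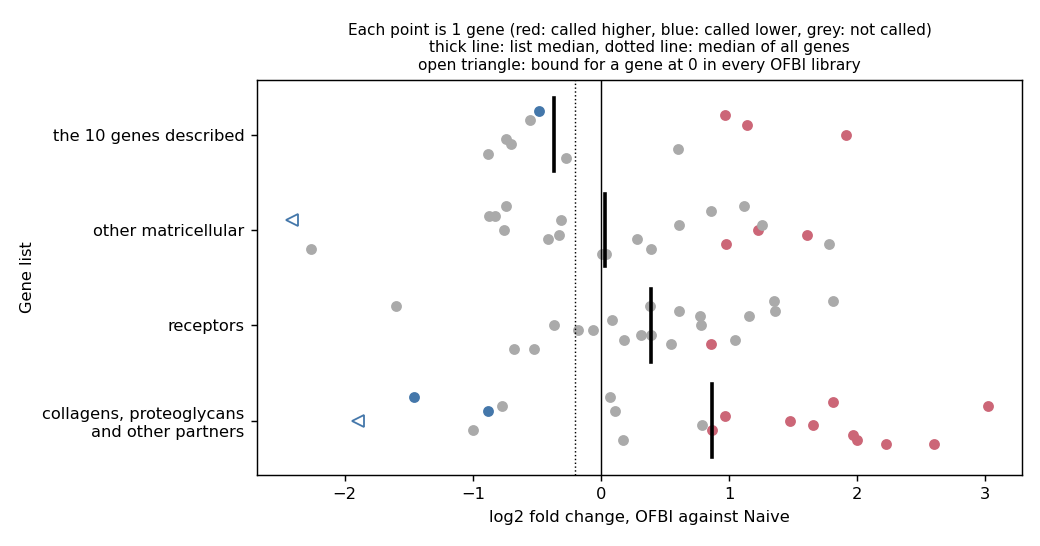
The difference on the log2 scale of each tested gene in the 4 gene lists (1 point a gene, edgeR, coloured by call), with the list median as a thick line, the median of all genes as a dotted line, and open triangles at the bound for Spock1 and Vcan, which were at 0 in every OFBI library. The list medians are -0.37, 0.03, 0.39 and 0.87, and Matn3, under the floor, is not drawn.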

How the data were processed

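RNA-seq was made from pooled mouse corneas, 3 OFBI and 3 Naive libraries, with RNeasy isolation, 2 µg of RNA per sample and a stranded kit, per the labels' protocols. Groups and replicate numbers came from the sample titles. The deposited values are whole estimated counts of genes, 1 table a library, which the authors left unscaled for depth. Per the submitters' processing notes, the genome build was GRCm38, and StringTie, HISAT2, DESeq2 and FastQC are named without versions or roles. Neither the strand setting of the counting nor the annotation release is given in those notes. Multiples of 4 made up 39.4% to 50.4% of values from 1 to 40, so about 4 counts may stand for 1 fragment, an inference from the values. Fragment numbers, floors and intervals rest on it and cover counting error only. Rows sharing a symbol were summed, and 26 rows with date-like names, at most 0.148% of a library's counts, got neutral names.

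Tests used edgeR 4.0.16 (R 4.3.3) on the deposited counts: filterByExpr, TMM and a two-sided quasi-likelihood test on group alone. The SE is the log2 fold change divided by the square root of F. DESeq2 1.42.0, limma-voom (limma 3.58.1), other scalings and filters, thinning, division by 4, a GC and length trend, a replicate block and leaving out each library were alternatives. DESeq2 and limma-voom without each library were added after the data were seen. The procedure was also run on simulated data. The changes simulated there covered neither levels as low as that of Thbs3 nor differences as small as that of Fn1. No libraries of a group agreed within sampling noise. All libraries carry batch number 4, so no batch comparison was possible. P-values measure the spread between pools. Lengths and coordinates are from GENCODE mouse release 21 on GRCm38, which may not be the authors' annotation, and 21710 symbols matched.

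The 10 genes and all lists were chosen with earlier results of these data known. The genes named were all 10, the 3 tested genes with the smallest p in each of 3 companion lists, and the 2 most abundant tested genes of each of 12 marker lists. Genes named beyond these were chosen after their values were seen. Of the marker lists (tested genes in brackets), those of corneal epithelium (8), keratocytes (8), corneal endothelium (4), hepatocytes (4), cardiomyocytes (8) and skeletal muscle (8) had 3, 0, 0, 4, 5 and 2 genes higher and 1, 2, 2, 0, 0 and 1 lower. Those of platelets (2), vascular endothelium (7), smooth muscle and pericytes (6), brain (5), macrophages (6) and tendon and sclera (4) had 0, 0, 1, 0, 1 and 1 higher and 0, 1, 0, 1, 0 and 0 lower. Their most abundant genes were Krt12 and Krt5, Dcn and Ptgds, Col8a2 and Col8a1, Alb and Apoa1, Mb and Myh6, Myh1 and Myh2, Gp1bb and Itga2b, Kdr and Plvap, Myh11 and Tagln, Slc1a2 and Syt1, Lyz2 and C1qa, and Fmod and Scx.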

Additional observations from a re-analysis of the deposited data

How the results depend on the processing

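Thbs4 and Sparc kept a positive and Fn1 a negative sign under all 31 alternatives, and Thbs3 a positive sign under 30, since it did not pass the expression filter with all libraries thinned to the shallowest. Among the 10 genes the only reversals were of Sparcl1, at 0.05 after removal of a GC and length trend and 0.05 with limma-voom without OFBI replicate 1. The replicate numbers do not pair the libraries (correlations of deviations 0, -0.02 and 0.01). With a replicate block edgeR called 540 genes higher and 253 lower (3.87% and 1.81% of all genes), with 0 members higher and 0 lower. DESeq2 called 1854 genes higher and 3 members lower, against 13.3% of all genes higher and 13.1% lower. With library size alone 3 members were called lower, against 14.6% of all genes. With no filter 910 genes (5.37%) were called lower. Counts divided by 4 gave 2 members lower, against 10.4% of all genes. Thinning of Naive libraries left 562 genes (4.8%) and 0 members lower, and thinning of all libraries 423 (4.36%) and 0. The GC and length fit left 1 member higher, against 6.34% of all genes. Leaving out each library, edgeR called 0 to 1611 genes higher (0 to 10.8%) and 0 to 2065 lower (0 to 13.8%). Among the members it called 0 to 3 higher and 0 to 3 lower. DESeq2 without OFBI replicates 1, 2 and 3 called 2020, 2258 and 2419 genes higher and 2492, 2891 and 2748 lower. The genes lower were 16.7%, 19.4% and 18.4% of all genes, beside 3, 4 and 3 members lower. Without Naive replicates 1, 2 and 3 DESeq2 called 604, 479 and 539 genes lower. Over the same Naive removals limma-voom called 776, 529 and 691 lower, with 2 members lower in the last, against 5.7% of all genes. Without OFBI replicate 1 limma-voom called 622 genes (4.17%) and 1 member higher. Without OFBI replicate 2 it called 1 member higher and 0 lower, against 5.6% and 7.67% of all genes. Thinning leaves fewer counts and a missing library fewer samples, and the cause of these moves was not tested. Depth of the OFBI libraries limits Thbs3, Tnc, Sparcl1 and Postn, with at most 20 inferred fragments each over the group.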
